A study of Homo sapiens with 8 samples.

Results

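Receptor tyrosine kinases are membrane proteins that bind a ligand outside the cell and phosphorylate tyrosines inside it, and these marks recruit adaptor proteins such as GRB2 and SHC1. Members outside the ERBB, KIT and insulin receptor groups include the ephrin receptors, which bind ligands held on neighbouring cells, the collagen receptors DDR1 and DDR2, and the receptors of fibroblast growth factors (FGFs), of hepatocyte growth factor (HGF) and of the growth arrest protein GAS6. Several of them, among them EPHA2, AXL and MET, are known for their part in the migration and spread of carcinoma cells. A list of 37 such genes, matched by symbol, was present in full among the 22554 features of the deposited tables.

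The RNA came from SKOV3, an established human ovarian cancer line known to carry an amplified ERBB2. LDL samples, 4 in number, had received low-density lipoprotein, the particle that carries most cholesterol in blood plasma, at a dose of 50 µg/mL and over 48 h. The 4 control samples had ordinary medium, and all 8 were grown in McCoy's 5A with fetal bovine serum. Nothing in the labels ties the replicates of a group to separate cultures, so each p-value reflects the spread between these 8 samples alone, and that spread may be technical.

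Total counts per library were 34682501 to 36780334 in LDL samples and 37189698 to 44883561 in control samples, so every LDL library was shallower. Of 7 markers listed for the line, 6 had a mean of at least 1 FPKM (fragments per kilobase of gene, scaled to library size), and MUC16 was near 0. No endothelial marker of 5 reached that level, their sum being 0.547 to 0.984 FPKM in LDL and 0.835 to 0.879 FPKM in control samples. Of 5 leukocyte markers only CD68, a lysosomal protein, reached it, at 28.3 ± 1.12 FPKM in LDL and 24.8 ± 2.65 FPKM in control samples (SD, n = 4 each). The list summed to 27.4 to 29.5 FPKM in LDL and 21.5 to 27.7 FPKM in control samples, with PTPRC, the pan-leukocyte marker, at 0 in all libraries. LDL sample 4 stood apart in the fibroblast list, which this line partly expresses through COL1A1: its markers summed to 28.5 FPKM there, against 66.2 to 74.6 FPKM in the other LDL samples and 63.3 to 67.1 FPKM in control samples. Whether this has a part in the values of LDL sample 4 below was not tested.

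SKOV3 cells expressed 18 of the 37 receptor genes, taking a mean of at least 1 FPKM over the 8 samples as expressed. EPHA2, the ephrin-A receptor, stood highest at 86.6 ± 4.203 FPKM in LDL and 89.7 ± 5.06 FPKM in control samples (SD, n = 4 each). AXL, the receptor of GAS6, followed at 72.7 ± 2.63 FPKM in LDL and 75.1 ± 3.67 FPKM in control samples. PTK7, a receptor of Wnt signalling that lacks kinase activity, stood at 65.3 ± 8.05 FPKM in LDL and 66.7 ± 2.62 FPKM in control samples. These 3 genes made up 56.3 ± 0.272% of the summed FPKM of all 37 in LDL samples and 56.3 ± 1.21% in control samples. EPHA2 lay above AXL in each of the 8 libraries without overlap, while AXL and PTK7 overlapped.

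The middle of the order held RYK, FGFR1, MET, DDR1, EPHB2 and EPHB4, from 35.1 FPKM for RYK to 16.2 FPKM for EPHB4 over all samples. RYK did not overlap with its neighbours PTK7 and FGFR1, but from FGFR1 down to EPHB4 each gene overlapped with the next. FGFR4, MST1R, TYRO3, EPHA4, FGFR3 and ROR1 lay between 8.67 and 2.61 FPKM. FLT4 at 1.33, EPHA10 at 1.01 and EPHB1 at 1.00 FPKM were the lowest genes called expressed. Just under the limit was RET at 0.847 FPKM. Ephrin receptors held 31.6 ± 0.451% of the summed FPKM in LDL and 32.2 ± 0.815% in control samples, and the Wnt-binding receptors 26.0 ± 1.15% in LDL and 25.2 ± 1.02% in control samples.

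**Figure D1:**
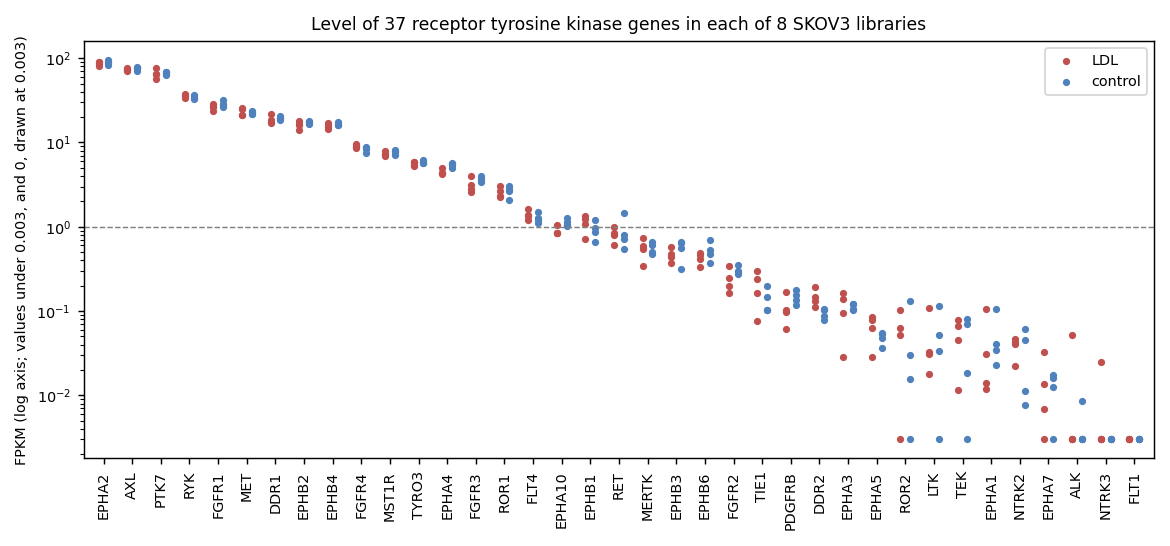
FPKM of each of the 37 receptor genes on a log axis, with 1 point per library (LDL red, control blue) and genes in falling order of mean level; the dashed line is 1 FPKM. EPHA2, AXL and PTK7 are highest, 18 genes have a mean of at least 1 FPKM, and the groups lie over each other for most genes.

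A further 12 genes had enough counts for a test but a mean under 1 FPKM: RET, MERTK, EPHB3, EPHB6, FGFR2, TIE1, PDGFRB, DDR2, EPHA3, EPHA5, TEK and NTRK2. The 7 genes left were EPHA1, EPHA7, ROR2, ALK, NTRK3, LTK and FLT1. They had at most 22 counts in any library and were not tested. FLT1, a receptor of vascular endothelial growth factor (VEGF), was without a count in any of the 8 libraries. A count of 0 leaves room for up to 3 counts per library, or 0.0811 to 0.0872 CPM (normalised counts scaled to library size) in LDL and 0.0673 to 0.0800 CPM in control libraries. NTRK3, a neurotrophin receptor, had 4 counts in 1 LDL library and none elsewhere. PDGFRB, the platelet-derived growth factor receptor of stromal cells, and the endothelial receptors TIE1 and TEK were all under 0.2 FPKM on average. Of 6 receptors reported to lack kinase activity or to have little of it, PTK7, RYK, ROR1 and EPHA10 were expressed, while EPHB6 at 0.470 and ROR2 at 0.0496 FPKM were not.

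The starts of the genes shown here are those of the gene at the top of the order, EPHA2, and of EPHA4, which had the smallest p in the comparison with LDL. Each run covers 250 bases before and 50 after an annotated start, from RefSeq on GRCh38.p14, read along the minus strand on which both genes lie, with CpG dinucleotides in capitals. EPHA2 is at chr1:16156020-16156319 with 20 CpGs. EPHA4 has a pair of listed starts, an upstream one at chr2:221574153-221574452 with 12 CpGs and 43.0% G and C, and a downstream one at chr2:221572255-221572554 with 33 CpGs and 74.3%.
EPHA2: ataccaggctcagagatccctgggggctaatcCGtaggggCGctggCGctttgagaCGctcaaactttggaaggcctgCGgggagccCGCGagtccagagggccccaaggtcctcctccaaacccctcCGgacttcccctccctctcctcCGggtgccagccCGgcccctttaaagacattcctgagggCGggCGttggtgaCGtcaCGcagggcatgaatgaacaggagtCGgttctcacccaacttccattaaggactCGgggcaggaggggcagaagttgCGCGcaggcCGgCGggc
EPHA4 upstream start: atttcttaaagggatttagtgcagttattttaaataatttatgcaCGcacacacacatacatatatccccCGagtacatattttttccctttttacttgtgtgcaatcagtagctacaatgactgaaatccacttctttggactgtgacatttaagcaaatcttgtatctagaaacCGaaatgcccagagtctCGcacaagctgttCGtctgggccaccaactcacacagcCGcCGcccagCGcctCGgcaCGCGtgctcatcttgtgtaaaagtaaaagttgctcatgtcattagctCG
EPHA4 downstream start: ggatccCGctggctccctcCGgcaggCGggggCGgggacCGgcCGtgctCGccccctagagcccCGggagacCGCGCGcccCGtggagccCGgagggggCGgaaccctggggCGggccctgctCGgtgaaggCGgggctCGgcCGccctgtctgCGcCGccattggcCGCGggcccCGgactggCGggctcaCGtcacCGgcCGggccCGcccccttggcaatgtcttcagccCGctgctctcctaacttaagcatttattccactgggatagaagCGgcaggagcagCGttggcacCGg

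Windows of this kind matched 34 of the 37 genes, and EPHA10, FGFR1 and FLT4 were not matched. With the window nearest to the GENCODE gene start taken for each gene, 12 of 15 expressed and 12 of 19 lower genes had at least 50% G and C with an observed to expected CpG ratio of at least 0.6, against 64.5% of 14896 protein-coding genes. The windows of EPHB1, EPHB6, DDR1 and TYRO3 lay 1537 to 197459 bases from that start. Those of DDR2, NTRK2, MET, RYK and ROR2, 66 to 755 bases from it, also left it out. All of these windows may therefore miss the start in use. AXL was among the expressed genes that missed the G and C or CpG limit, with 7 CpGs and a ratio of 0.216 at a level second only to EPHA2. EPHA4 also missed it by its upstream window, at 43.0% G and C. Its downstream window, at 74.3% and a ratio of 0.796, would have met both limits. The GC box GGGCGG, searched on both strands, was present in 27 of 34 windows, against 59.65% of all; it contains a CpG, so the measures overlap. The TATA box TATAAA, on both strands, was found in FLT1 and DDR2 alone, against 9.5% of all windows. The sterol regulatory element TCACNCCAC, the motif of the SREBP factors that respond to cellular cholesterol, was found on either strand in PDGFRB alone of the 34, against 1.13% of all windows. No match says only that these letters are not in the window.

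The main comparison asked whether LDL altered the level of these receptor genes. None of the 30 tested genes passed at an adjusted p under 0.05 in edgeR's quasi-likelihood test, against 10 of all 15432 tested features, or 0.0648%. That is 0 higher, against 0.0259% of all features, and 0 lower, against 0.0389%. Adjusted p-values of the 30 ran from 0.501 to 0.993. DESeq2 and limma voom also called none, and no count-based or FPKM-based alternative called any. At an unadjusted p under 0.05 there were 2, EPHA4 and DDR2, which is 6.67% of the 30 against 5.59% of all features. Of the 30, 19 lay below 0 on the log2 scale, 63.3% against 47.7% of all features, and the median log2 fold change was -0.05 against 0.01 over all features. In these bulk samples fewer cells with a transcript and less transcript per cell cannot be told apart.

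For 11 of the 30, or 36.7%, all of them expressed, the unadjusted 95% interval of the fold change lay within 1.2-fold in both directions, against 46.6% of all features. The 11 were EPHA2, AXL, PTK7, RYK, FGFR1, MET, DDR1, EPHB2, EPHB4, MST1R and TYRO3. For 18 of the 30, or 60.0%, the interval lay within 1.5-fold, against 76.3% of all features. In both counts the 30 genes together stood below the share of all features, but the expressed genes did not. Of the 18 expressed genes, 61.1% lay within 1.2-fold and 94.4% within 1.5-fold, both above the share of all features. Of the 12 tested genes under 1 FPKM, 0% and 8.33% did. The median width of the interval on the log2 scale was 0.274 for the 18, 1.36 for the 12 and 0.388 over all features. All features were not held to a mean of 1 FPKM, and the share among features at that level was not worked out. The comparison therefore does not set the expressed receptors apart from other expressed genes. For the low genes the intervals were wide. That of TEK ran from 0.399-fold to 3.59-fold, so for TEK a sizeable change in either direction was not excluded.

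**Figure D2:**
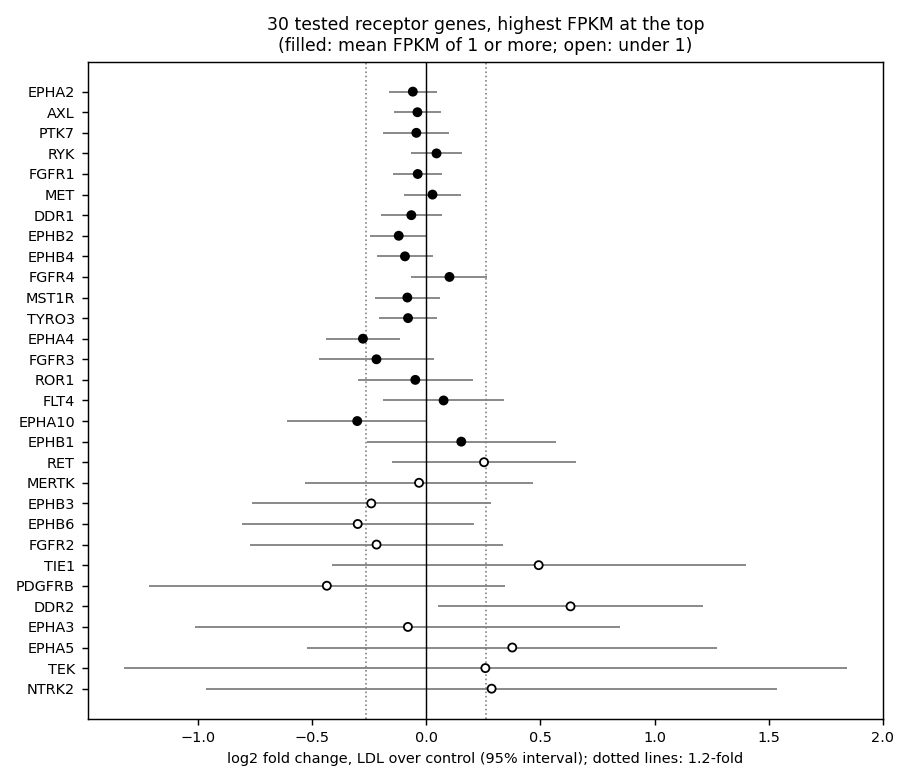
Log2 fold change of LDL over control for the 30 tested receptor genes with 95% intervals from edgeR, in falling order of FPKM (filled points: mean of at least 1 FPKM; open points: under 1); dotted lines mark 1.2-fold. The intervals of 11 abundant genes lie between the dotted lines, and the intervals of EPHA4 and DDR2 are those that leave out 0.

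EPHA4, an ephrin receptor that binds both classes of ephrin, had the smallest p. The gene (ENSG00000116106) occupies bases 221418027 to 221574202 of chromosome 2 on GRCh38, on the minus strand. Its level was 24.8, 26.3, 27.5 and 30.7 CPM in LDL samples 1 to 4 and 34.5, 32.8, 34.7 and 30.6 CPM in control samples 1 to 4. LDL samples 1 to 3 lay below every control sample, and LDL sample 4 lay just above control sample 4. The means were 27.4 ± 2.50 CPM in LDL and 33.2 ± 1.88 CPM in control samples (SD, n = 4 each). This corresponds to a log2 fold change of -0.28 (SE 0.0775, 95% interval -0.44 to -0.11), 0.825 of control, with an edgeR adjusted p of 0.501 and rank 73 among 15432 features. The exact two-sided permutation p on log2 CPM was 0.0571, where 4 against 4 samples cannot go below 0.0286. In FPKM the groups, at 4.46 ± 0.335 in LDL and 5.41 ± 0.309 in control samples, were separated by a narrow gap. LDL sample 4 was at 4.95 FPKM and control sample 4 at 4.98 FPKM. The share of all features without overlap in FPKM was not worked out. When each of the 8 samples was left out, the log2 fold change stayed between -0.34 and -0.23, and the edgeR adjusted p was lowest, at 0.111, without LDL sample 4. Without LDL samples 1 and 4, a choice made after seeing the data, the edgeR adjusted p was 0.0539, and over all alternatives the adjusted p ran from 0.0539 to 0.9997.

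Other expressed ephrin receptors also lay below control, with the exception of EPHB1, and none passed. EPHA2 had 366.1, 353.1, 339.7 and 371.3 CPM in LDL samples and 363.2, 347.1, 382.0 and 397.2 CPM in control samples, which overlapped widely (0.960-fold, 95% interval 0.892 to 1.03). EPHB2, a receptor of B-type ephrins, had 189.5, 174.5, 177.2 and 152.6 CPM in LDL samples and 181.0, 186.9, 195.1 and 191.3 CPM in control samples. LDL sample 4 was the lowest of the 8 and LDL sample 1 lay among the controls (log2 fold change -0.12, SE 0.0589, edgeR adjusted p = 0.879). EPHB4, the receptor of ephrin-B2, had 75.5, 72.9, 70.3 and 65.5 CPM in LDL samples and 73.2, 80.6, 74.6 and 74.9 CPM in control samples (0.937-fold, interval 0.860 to 1.02). Here too LDL sample 4 was lowest and LDL sample 1 lay within the controls.

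EPHA10, an ephrin receptor without kinase activity, had 6.00, 4.82, 4.85 and 4.91 CPM in LDL samples and 5.28, 7.39, 6.15 and 6.58 CPM in control samples. LDL samples 2 to 4 lay below every control, and LDL sample 1 above control sample 1 (0.811-fold, interval 0.656 to 1.00, edgeR adjusted p = 0.879). EPHB1 stood at 5.03 ± 1.01 CPM in LDL and 4.53 ± 1.11 CPM in control samples (SD, n = 4 each), and it spread most between replicates of the 18 expressed genes. Of the low ephrin receptors, EPHB3 was at 0.846-fold, EPHB6 at 0.812-fold, EPHA3 at 0.946-fold and EPHA5 at 1.30-fold, each with an interval that held 1. Over the 10 tested ephrin receptors 8 lay below 0, against 47.7% of all features. Their median was -0.11, against 0.01 over all features. The 8 include EPHB3, EPHB6 and EPHA3, which were under 1 FPKM, and the family as a set was not tested.

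**Figure D3:**
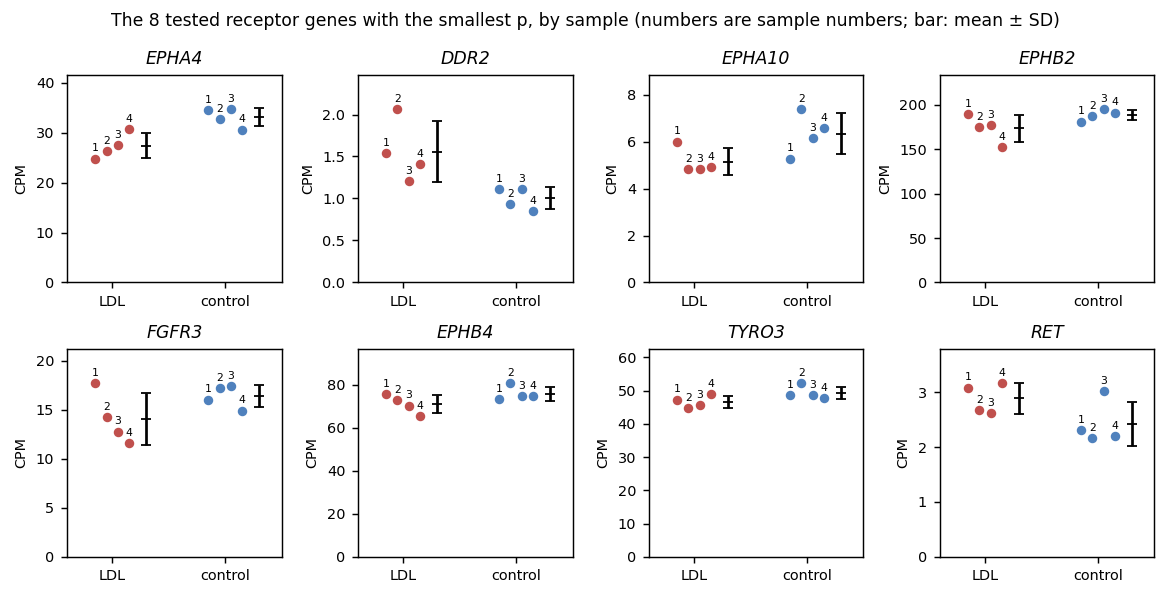
CPM by sample for the 8 tested receptor genes with the smallest p, with LDL samples left and control samples right, sample numbers above the points and mean ± SD beside them (n = 4). In CPM only DDR2, at about 1 to 2 CPM, shows groups that do not overlap, and none of the 8 passed the adjusted threshold.

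The collagen receptors differed in level. DDR1, the epithelial collagen receptor, had 80.2, 70.6, 68.6 and 65.5 CPM in LDL samples and 74.1, 75.8, 72.8 and 75.42 CPM in control samples. The LDL samples lay on both sides of the controls (0.956-fold, interval 0.872 to 1.05). DDR2, the receptor of fibrillar collagen known from mesenchymal cells, was low, at 0.145 ± 0.0340 FPKM in LDL and 0.0932 ± 0.0126 FPKM in control samples. Its counts were 57, 71, 42 and 49 in LDL samples and 46, 35, 43 and 38 in control samples. That is 1.54, 2.06, 1.21 and 1.41 CPM in LDL samples and 1.12, 0.934, 1.11 and 0.853 CPM in control samples, so every LDL sample lay above every control sample. In CPM, DDR2 was the only receptor gene of the 30 whose groups did not overlap, or 3.33%, against 3.45% of all features. The ratio was 1.55-fold (95% interval 1.04 to 2.32, edgeR adjusted p = 0.876). The exact two-sided permutation p on log2 CPM was 0.0286, the smallest this design can give. Groups without overlap always give this value, so it adds nothing to the separation already described. Leaving out LDL sample 2 lowered the log2 fold change of DDR2 from 0.63 to 0.46 (edgeR unadjusted p = 0.139). Over all single omissions this log2 fold change lay between 0.46 and 0.73.

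FGF receptors spanned a wide range of levels. FGFR1 had 145.8, 143.0, 143.7 and 130.9 CPM in LDL samples and 141.1, 139.1, 149.6 and 148.5 CPM in control samples (0.974-fold, interval 0.905 to 1.05). FGFR4 had 25.2, 26.2, 26.6 and 28.8 CPM in LDL samples and 23.5, 23.1, 25.3 and 27.7 CPM in control samples (1.07-fold, interval 0.956 to 1.204). In both genes the groups overlapped. FGFR3 had 17.7, 14.3, 12.8 and 11.6 CPM in LDL samples and 16.0, 17.2, 17.4 and 14.9 CPM in control samples. LDL samples 2 to 4 lay below every control and LDL sample 1 above every control, and the log2 fold change of -0.22 (SE 0.118, edgeR adjusted p = 0.882) was -0.35 without LDL sample 1 and -0.14 without LDL sample 4. FGFR2 was low at 1.51 CPM in LDL and 1.75 CPM in control samples.

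MET, the HGF receptor, had 178.5, 150.7, 153.4 and 175.7 CPM in LDL samples and 162.8, 169.8, 159.0 and 154.3 CPM in control samples. LDL samples 1 and 4 were above all controls and LDL samples 2 and 3 below them all (1.02-fold, interval 0.934 to 1.11). The direction turned without LDL sample 1 (log2 fold change -0.014) or LDL sample 4 (-0.0052). Its relative MST1R, the receptor of macrophage-stimulating protein, stood at 35.6 ± 1.91 CPM in LDL and 37.7 ± 2.07 CPM in control samples (SD, n = 4 each). AXL had 343.8, 344.8, 330.8 and 357.6 CPM in LDL samples and 361.8, 327.3, 368.5 and 356.6 CPM in control samples (0.974-fold, interval 0.907 to 1.05). TYRO3, of the same family, had 47.3, 44.8, 45.5 and 48.9 CPM in LDL samples and 48.5, 52.1, 48.6 and 47.8 CPM in control samples (0.946-fold, interval 0.867 to 1.03). In AXL and TYRO3 the groups overlapped, and MERTK, known from phagocytes, was at 2.22 CPM in LDL and 2.27 CPM in control samples.

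Among the Wnt-binding receptors, PTK7 had 317.6, 280.1, 276.9 and 240.9 CPM in LDL samples and 272.2, 297.7, 284.1 and 295.6 CPM in control samples. LDL sample 1 was the highest and LDL sample 4 the lowest of the 8, and the ratio was 0.970-fold (interval 0.878 to 1.07). Without LDL sample 4 its log2 fold change was 0.021. RYK had 111.0, 107.1, 117.1 and 118.9 CPM in LDL samples and 111.8, 115.4, 109.2 and 103.7 CPM in control samples, which overlapped (1.03-fold, interval 0.954 to 1.12). ROR1, the WNT5A receptor, was at 15.6 ± 2.01 CPM in LDL and 16.2 ± 2.43 CPM in control samples (SD, n = 4 each). FLT4, the receptor of VEGFC, was at 7.43 ± 0.384 CPM in LDL and 7.05 ± 0.822 CPM in control samples (SD, n = 4 each). RET, the receptor of the glial cell line-derived factors, had 3.08, 2.67, 2.62 and 3.16 CPM in LDL samples and 2.30, 2.16, 3.02 and 2.20 CPM in control samples. Only control sample 3 reached into the range of the LDL samples (1.19-fold, interval 0.901 to 1.58, edgeR adjusted p = 0.905). In FPKM its direction turned, with 0.812 ± 0.157 in LDL and 0.882 ± 0.406 in control samples (SD, n = 4 each). Control sample 3 stood at 1.47 FPKM, against 0.716, 0.542 and 0.801 FPKM in control samples 1, 2 and 4.

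LDL sample 4 had the lowest CPM of the 8 samples in 6 of the 18 expressed genes. LDL sample 1 had the highest in 4 and the lowest in 1. In control samples these counts ran from 1 to 4 for the highest and from 0 to 2 for the lowest. The median deviation from the mean of all samples over the 18 genes was 0.06 in LDL sample 1 and -0.04, -0.07 and -0.08 in LDL samples 2 to 4, against 0.00 to 0.06 in control samples, on the log2 scale.

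**Figure D4:**
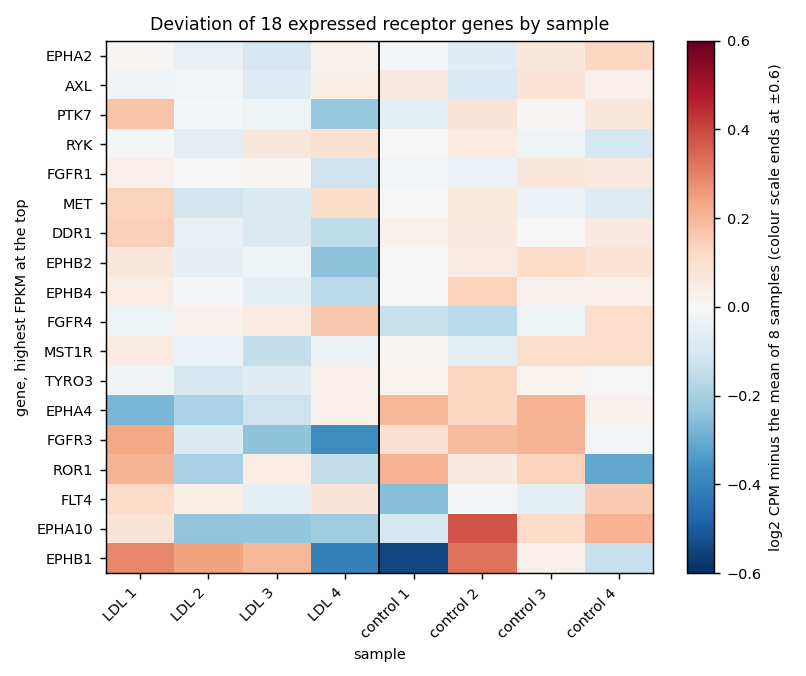
Log2 CPM of the 18 expressed receptor genes in each sample, as the difference from that gene's mean over 8 samples (red above, blue below), with LDL samples left of the line and control samples right. EPHA4 is below its mean in LDL samples 1 to 3, FGFR3, EPHB2, PTK7 and EPHB4 are lowest in LDL sample 4, and LDL sample 1 is above the mean for most genes.

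Ligands and signalling partners were examined through a list of 77 genes, of which 62 were tested. None passed in edgeR, DESeq2 or limma voom, 4 had an unadjusted edgeR p under 0.05, or 6.45% against 5.59% of all features, and 29 lay above and 33 below 0 with a median of -0.01. Ligands of some abundant receptors, among them EPHA2 and AXL, were themselves transcribed. GAS6, the AXL ligand, stood at 49.2 ± 1.39 FPKM in LDL and 51.4 ± 1.87 FPKM in control samples (SD, n = 4 each). EFNA1, the best known EPHA2 ligand, was at 27.3 ± 5.12 FPKM in LDL and 26.5 ± 2.78 FPKM in control samples, and EFNB1 at 37.3 ± 5.63 FPKM in LDL and 34.9 ± 1.90 FPKM in control samples (SD, n = 4 each). FGF18 and FGF2 were the highest of the listed FGFs, at 16.8 and 12.3 FPKM in LDL and 16.6 and 12.6 FPKM in control samples.

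For other receptors the listed ligand was low. HGF, the ligand of MET, had no count in any library. MST1, the ligand of MST1R, was at 0.534 FPKM in LDL and 0.428 FPKM in control samples. The opposite held for BDNF, at 8.95 FPKM in LDL and 8.59 FPKM in control samples, whose receptor NTRK2 averaged 0.0347 FPKM, and for ARTN, at 14.5 FPKM in LDL and 13.3 FPKM in control samples, which signals through RET. VEGFC stood at 6.50 FPKM in LDL and 6.73 FPKM in control samples and WNT5A at 3.78 FPKM in LDL and 3.73 FPKM in control samples.

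**Figure D5:**
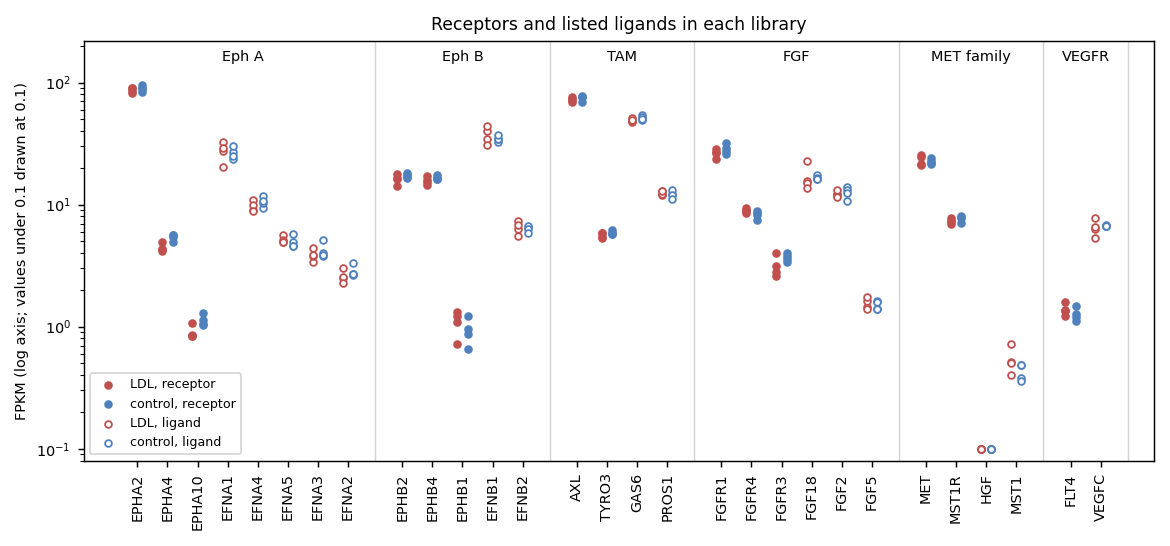
FPKM of expressed receptors (filled) and listed ligands (open) by family on a log axis, 1 point per library, LDL red and control blue; values under 0.1, 0 included, are drawn at 0.1. GAS6 and EFNB1 stand above 30 FPKM, HGF is at 0 and MST1 is below 1 FPKM.

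The partner genes with the smallest p were NTF4, VEGFB, PLCG1, FGFRL1 and GAB2. NTF4, a neurotrophin, had 29, 14, 36 and 38 counts in LDL samples and 70, 51, 52 and 68 in control samples, without overlap (0.561-fold, edgeR adjusted p = 0.822). VEGFB, a VEGF family ligand, had 39.0, 39.6, 41.0 and 38.7 CPM in LDL samples and 36.6, 33.9, 35.5 and 36.2 CPM in control samples, also without overlap (1.11-fold, edgeR adjusted p = 0.839). These were the 2 of the 62 with separate groups, 3.23% against 3.45% of all features. PLCG1, the phospholipase recruited by active receptors, averaged 136.2 CPM in LDL and 150.1 CPM in control samples (0.908-fold). FGFRL1, an FGF receptor without a kinase domain, averaged 81.02 CPM in LDL and 94.4 CPM in control samples (0.858-fold), and the adaptor GAB2 11.5 CPM in LDL and 9.88 CPM in control samples (1.17-fold). In each of these 3 the groups overlapped, and in PLCG1 and FGFRL1 LDL sample 1 was the highest LDL sample, at 153.5 and 96.7 CPM.

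Of the 16 adaptors, 15 were tested, and of the 11 negative regulators and sheddases, 10 were tested. GRB2 and SHC1, the adaptors nearest to active receptors, were at 1.01-fold and 1.00-fold. CBL, the ubiquitin ligase that takes receptors out of the membrane, was at 0.996-fold, and ADAM10 and ADAM17, proteases that shed receptors and ephrins, at 0.961-fold and 0.992-fold. ERRFI1, an inhibitor of receptor kinases, was at 1.08-fold (edgeR adjusted p = 0.879). None of these passed.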

How the data were processed

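Per the labels' protocols, stranded messenger RNA libraries were made from Trizol-extracted RNA. The GRCh38 build and the tools HISAT2, featureCounts and DESeq2 (version 1.26.0) appear, without roles, in the submitters' processing notes; the strand setting of the counting is not given in the sources. The deposited counts are whole numbers handled as estimated counts, because 55.2% of values from 1 to 20 were even and 2557 features carry assembly names. The deposited FPKM values, which the authors normalized for length and depth, served for levels between genes and for alternatives.

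Genes were tested with edgeR 4.0.16 in R 4.3.3 (quasi-likelihood test, TMM normalization, filterByExpr, group as the only term, Benjamini-Hochberg adjustment over 15432 features); CPM use TMM library sizes. The test was checked on data simulated under its own count model, which does not cover a sample that stands apart from its group. No replicate pair was a repeat, with chi-square over degrees of freedom at 6.84 or more. Members, gene lists and alternatives were chosen with earlier results of these data known. The naming rule took the 10 tested members with the highest FPKM, the 8 with the smallest p, those with separate groups, and the 5 partners with the smallest p; the highest ligands of expressed receptors were also named, and ARTN, BDNF, CBL, GRB2, SHC1, ADAM10, ADAM17 and ERRFI1 were added after their values were seen. Alternatives used DESeq2 1.42.0, limma 3.58.1, other normalizations and filters, FPKM with pseudocounts of 1 and 0.1, a replicate block and left-out samples. Coordinates are from GENCODE 29 on GRCh38, matched by symbol. Where the counting did not use strand, reads of EPHB4 and SLC12A9, FGFR1 and LETM2, EPHB1 and KY, and EPHA1 and ZYX, which overlap on opposite strands, cannot be told apart. Limits for a count of 0 cover counting error only.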

Additional observations from a re-analysis of the deposited data

Results flagged for a closer look

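Over the 30 tested receptor genes, 60 groups of 4 samples were checked for a sample far from the other 3, of which chance flags about 1 in 20, and 3 were found. EPHA10 in LDL sample 1 was at 6.00 CPM, against 4.82 to 4.91 CPM in the other LDL samples. EPHB1 in LDL sample 4 was at 3.53 CPM, against 5.36 to 5.71 CPM in the other LDL samples. RET in control sample 3 was at 3.02 CPM, against 2.16 to 2.30 CPM in the other control samples.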

How the results depend on the processing

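The count of receptor genes called was 0 under each of the 20 alternatives, and that of partner genes was 0 in all but the fit without LDL samples 1 and 4, added after seeing the data, which called 1, SHC2 (not tested with all samples), with counts of 28, 0, 0 and 9 in LDL and 14, 8, 24 and 12 in control samples. The count over all features, 10, was 48 with DESeq2, 2 with the replicate block, 5 with log2(FPKM + 0.1) and a minimum of 0.5, 2 with log2(FPKM + 1) and no minimum, 16 at an adjusted p under 0.1 and 248 without LDL samples 1 and 4. With 1 sample left out it ran from 2 to 149, and it moved by over 1.5 times for each of the 8. The number of receptor genes with an interval inside 1.2-fold, 11, was 18 at 1.5-fold. Of 397 log2 fold changes of 21 named genes, 390 kept their direction. RET was at -0.0358, -0.0417 and -0.0358 in the FPKM fits, and the cause was not tested. MET was at -0.0907 without LDL samples 1 and 4, from -0.0139 to 0.0646 with 1 sample left out, and PTK7 from -0.112 to 0.0208. No pairing by replicate number was seen: same-numbered deviations correlated from -0.0923 to 0.0263, and 3 of 8 samples correlated best with their own number. The replicate block called 0 receptor and 0 partner genes. The main fit called none either, so this cannot speak to pairing.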

Other observations

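The ratio of CPM to FPKM, which is constant across libraries apart from scaling where a gene has a fixed length, was within 1.1-fold across libraries for most abundant receptor genes, such as EPHA2 at 1.04-fold, but spread by 1.257-fold for FGFR1 and 2.13-fold for RET. For RET the mean was higher in LDL than in control samples by CPM, at 2.88 against 2.42, and lower by FPKM, at 0.812 against 0.882.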
